A study of Homo sapiens with 4 samples.

Results

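AP-1 is a family of transcription factors, and 10 of its genes are described here among the 64252 genes of the count table. They are the Jun genes JUN, JUNB and JUND, the Fos genes FOS, FOSB, FOSL1 and FOSL2, and ATF3, BATF and BATF3. They were picked by name with earlier results of the same comparison known. Their levels and differences between treatments are therefore a description, with no test, and support nothing by themselves. The samples are 4 libraries labelled NB4, a human acute promyelocytic leukemia line that carries the PML-RARa fusion. In 2 of them the cells had been treated with 8 μM dBET1 for 24 h, and in the other 2 with the same volume of DMSO, its solvent. dBET1 is a proteolysis-targeting chimera that joins a ligand of the BET bromodomain proteins to a ligand of CRBN, a ubiquitin ligase adaptor. A single line, dose and time were sequenced, and nothing in the labels says whether replicates were separate cultures, so p-values measure the spread between these samples only, which may be technical.

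AP-1 factors share a basic region that contacts DNA and a leucine zipper through which they pair. Jun proteins pair with each other or with Fos proteins, while Fos proteins need a Jun partner, and the pairs bind the sequence TGACTCA, known as the TPA response element (TRE). ATF3 pairs with Jun proteins and also binds the related cyclic AMP response element (CRE), TGACGTCA. BATF and BATF3 lack the activation domain that the proteins of FOS and FOSB carry. FOS, JUN and ATF3 are early response genes, which MAP kinases switch on within minutes of a stimulus, and their mRNAs decay quickly. In myeloid cells, Jun proteins are known for their part in monocytic differentiation.

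A few facts of the whole data set bear on these genes. Libraries held 28019956 to 34685645 counts, and 17971 genes passed the filter on low counts. Replicates differed by more than the counting error, with a chi-square per degree of freedom of 25.3 in the DMSO pair and 8.06 in the dBET1 pair. Defining genes of the labelled cell type were almost absent. Of 5 neutrophil granule genes, ELANE and CTSG were at 0 in every library, and the sum over all 5 (with MPO, PRTN3 and AZU1) was 15 to 17 counts with DMSO and 25 to 55 counts with dBET1. Of the 2 tested, edgeR called MPO higher with the thresholds given below, beside 16.9% of all tested genes, and did not call AZU1. DESeq2 also called 1 gene of this list higher. MPO had 0 counts in each DMSO library and 22 and 10 with dBET1, so it passed the count filter through the dBET1 libraries alone. Levels are given as CPM, counts scaled to a common library size after normalization. A list of 9 erythroid genes, led by the fetal globin gene HBG2, summed to 4286 to 5115 CPM with DMSO and 2804 to 2810 CPM with dBET1, and 3 of the 9 were called lower by edgeR with the thresholds given below, beside 8.54% of all tested genes. None was called higher (0 by edgeR, 0 by DESeq2 and 0 with an unadjusted p under 0.05). A list of 5 monocyte genes summed to 36.3 to 41.0 CPM with DMSO and 23.8 to 26.6 CPM with dBET1, with 3 called higher by edgeR (ITGAM, CSF1R and CD14) and 1 lower (CD68), beside 16.9% and 8.54% of all tested genes. DESeq2 called 1 of the 5 higher and 1 lower. LYZ, the remaining gene, was lower by less than the limit, at -0.70 on the log2 scale (edgeR adjusted p = 0.00358). It had 18.4 and 17.4 CPM with DMSO and 10.8 and 11.3 CPM with dBET1. CSF1R had 3 and 4 counts with DMSO and 17 and 12 with dBET1, and CD14 had 18 and 14 against 27 and 48. A gene such as CSF1R could pass the count filter through the dBET1 libraries alone. The part of these cell markers in the AP-1 values was not tested. In bulk RNA, fewer cells of a type and less RNA per cell cannot be told apart.

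The sequences before the starts of the AP-1 genes differ between these genes in the elements they hold. RefSeq starts on GRCh38.p14 were found for 8 of the 10 genes, with 2 starts for ATF3, while FOSL1 and BATF3 have no entry. For each start the 250 bases before it were searched on both strands, and the following are shown because they belong to the genes with the largest differences (JUN, FOS and ATF3, whose first start is given) and to the most abundant member, JUND. Capitals mark matches, read on either strand, to the TRE, the CRE, TGACATCA (a TRE-like element known from JUN) or TGACGTTT (a CRE-like element known from FOS). They also mark the TATA element, searched as TATAAA. The GC box was searched with the letters GGGCGG. The CCAAT box was searched as its name spells it.
JUN, chr1:58784048-58784297, reverse strand: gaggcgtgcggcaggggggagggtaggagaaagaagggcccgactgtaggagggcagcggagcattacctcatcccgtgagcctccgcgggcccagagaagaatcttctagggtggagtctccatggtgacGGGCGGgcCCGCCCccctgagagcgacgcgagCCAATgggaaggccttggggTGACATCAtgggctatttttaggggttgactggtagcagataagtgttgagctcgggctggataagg
FOS, chr14:75278578-75278827, forward strand: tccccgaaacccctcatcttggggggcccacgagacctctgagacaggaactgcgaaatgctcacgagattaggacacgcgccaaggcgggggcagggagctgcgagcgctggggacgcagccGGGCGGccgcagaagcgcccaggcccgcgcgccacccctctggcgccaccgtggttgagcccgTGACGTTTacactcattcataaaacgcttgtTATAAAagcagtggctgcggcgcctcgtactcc
ATF3, chr1:212565157-212565406, forward strand: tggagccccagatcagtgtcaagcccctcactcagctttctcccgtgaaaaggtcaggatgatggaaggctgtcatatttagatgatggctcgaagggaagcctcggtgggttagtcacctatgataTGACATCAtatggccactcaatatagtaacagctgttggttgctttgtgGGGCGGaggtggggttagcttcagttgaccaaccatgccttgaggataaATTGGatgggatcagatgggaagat
JUND, chr19:18281623-18281872, reverse strand: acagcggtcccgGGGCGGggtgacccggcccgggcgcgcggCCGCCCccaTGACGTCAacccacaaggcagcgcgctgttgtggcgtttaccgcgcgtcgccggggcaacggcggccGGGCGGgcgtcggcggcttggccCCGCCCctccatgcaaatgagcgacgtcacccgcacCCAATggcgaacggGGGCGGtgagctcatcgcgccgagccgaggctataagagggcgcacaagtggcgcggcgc

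The TRE itself was in 0 of the 9 windows, and in 4.21% of all 34788 different windows of this length. TGACATCA was found before JUN, at bases 67 to 60 before the start, and before the first ATF3 start, at bases 123 to 116, and in 2.36% of all windows. The full CRE stood only before JUND among the 9, at bases 200 to 193, and in 1.64% of all windows. FOS held TGACGTTT at bases 64 to 57 and a TATA element at bases 33 to 28. The FOS CRE-like letters were in 0.417% of all windows and the TATA letters in 10.8%. TATA elements were also present before FOSB (bases 30 to 25), JUNB (bases 31 to 26) and the second ATF3 start (bases 230 to 225). GC boxes stood before 7 of 9 starts and in 42.6% of all windows, and CCAAT before 4 of 9 and in 32.0% of all windows. None of these motifs overlapped another in the windows printed above. A match is a description of letters, and the deposited counts per gene do not show which start was used.

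Among the Jun genes, JUN differed most between treatments. JUN (chromosome 1 of hg38, 58776845 to 58784048, reverse strand, a single exon) encodes the c-Jun protein, the strongest activator of the family. It had 852 and 853 counts with DMSO and 6535 and 6264 with dBET1. These were 26.1 and 30.4 CPM against 218 and 205 CPM. Every dBET1 library stood far above both DMSO libraries, and the means were 28.2 ± 3.0 and 211 ± 8.87 CPM (SD, n = 2 per treatment). The log2 fold change was 2.91 with a standard error of 0.0999, a ratio of 7.50.

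JUNB and JUND, which lie on chromosome 19 and like JUN consist of 1 exon, were also higher after dBET1, by much less. JUNB, a weaker activator that often opposes c-Jun, had 62.9 and 73.6 CPM with DMSO and 123 and 111 CPM with dBET1. Its log2 fold change was 0.78 (standard error 0.103). JUND (18279694 to 18281622, reverse strand), the Jun gene that most cells express without a stimulus, had 136 and 182 CPM with DMSO and 347 CPM in each dBET1 library. Its log2 fold change was 1.13 (standard error 0.128). For both genes the groups did not overlap, but the DMSO libraries of JUND differed from each other by more than those of JUNB. JUNB (12791486 to 12793315, forward strand) shares 259 bp of annotated exon with HOOK2 on the opposite strand. The strand setting of the counting is not given in the sources used here, so reads there cannot be told apart.

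The Fos genes did not move alike. FOS (chromosome 14, 75278826 to 75282230, forward strand, 4 exons in its canonical transcript) encodes c-Fos, the founding partner of c-Jun. It was nearly silent with DMSO, at 63 and 59 counts, and reached 635 and 622 counts with dBET1. These were 1.93 and 2.1 CPM against 21.2 and 20.4 CPM. Its log2 fold change of 3.36 (standard error 0.173, a ratio of 10.3) was the highest of the 10 genes. It ranked 514 among the 17971 genes tested by log2 fold change, and JUN ranked 722.

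FOSL1, which encodes Fra-1, was the only member that was lower after dBET1. FOSL1 (chromosome 11, 65892049 to 65900573, reverse strand) was counted 1720 and 1368 times in the DMSO libraries and 524 and 486 times in the dBET1 libraries. In CPM these were 52.7 and 48.7 against 17.5 and 15.9. The groups did not overlap, and the log2 fold change was -1.60 (standard error 0.108), or 3.04-fold lower. The related FOSL2 (chromosome 2, 28392448 to 28417317, forward strand), which encodes Fra-2, went the other way. It had 8.92 and 9.57 CPM with DMSO and 20.4 and 19.7 CPM with dBET1, a log2 fold change of 1.12 (standard error 0.138). FOSB (chromosome 19, 45467995 to 45475179, forward strand) was counted only 52 and 44 times with DMSO and 186 and 136 times with dBET1. Its log2 fold change of 1.75 had a standard error of 0.274, and its dBET1 libraries differed from each other, at 6.20 and 4.46 CPM. FOSB lies inside the span of ERCC1 on the opposite strand, although no annotated exon of one overlaps an exon of the other.

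ATF3, a stress-induced factor that acts mostly as a repressor, was higher after dBET1 with close replicates. ATF3 (chromosome 1, 212565334 to 212620777, forward strand) was counted 243 and 196 times in the DMSO libraries and 1216 and 1220 times in the dBET1 libraries. These were 7.45 and 6.97 CPM against 40.5 and 40.0 CPM, a log2 fold change of 2.48 (standard error 0.120, a ratio of 5.57). BATF3 (chromosome 1, 212686417 to 212699840, reverse strand), a factor known from dendritic cell development, was near the limit of detection. It had 30 and 10 counts with DMSO and 42 and 41 with dBET1. Its DMSO libraries differed from each other, at 0.919 and 0.356 CPM, and its log2 fold change of 1.08 had a standard error of 0.473. Without DMSO replicate 1 that value was 1.91, and without DMSO replicate 2 it was 0.54. BATF, which acts in lymphocytes with IRF factors, was listed at 0 in all 4 libraries and did not pass the filter. A count of 0 allows up to 3 counts, or 0.0919 to 0.107 CPM, and this covers counting error only. MEF2A, a gene that most cells express, was also listed at 0 in every library, so a 0 in this table may not mean that the mRNA was missing.

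**Figure D1:**
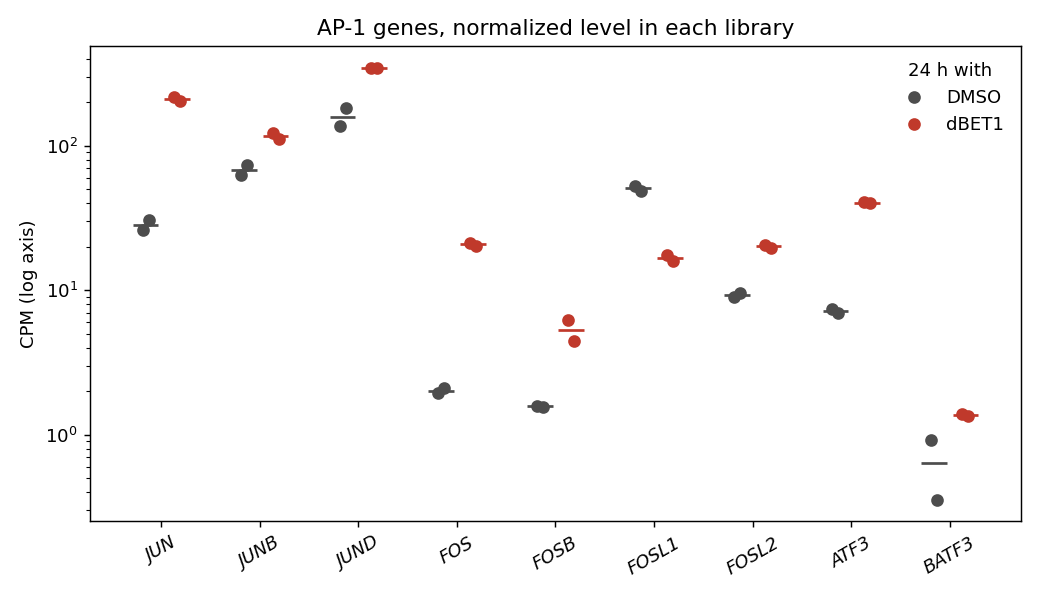
Level of 9 AP-1 genes in each library, in CPM on a log axis. Points are single libraries (2 with DMSO in grey, 2 with dBET1 in red) and bars their means. BATF, at 0 in every library, is not drawn. JUN, FOS and ATF3 show the widest gaps between treatments, FOSL1 is the one gene with its dBET1 points below, and BATF3 has widely spread DMSO points.

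Of the 9 members that passed the filter, 8 were higher in both dBET1 libraries than in either DMSO library, and 1, FOSL1, was lower in both. Among all 17971 tested genes 79.3% did not overlap between the groups, 41.9% with the dBET1 libraries higher and 37.4% with them lower. At an adjusted p under 0.05, 55.6% of all tested genes differed in either direction, and 25.4% did so with an absolute log2 fold change above 1. Nothing is read from the members' count, because the same comparison was known when they were chosen. Their median log2 fold change was 1.13, and the median over all tested genes was 0.048. Without DMSO replicate 1 the members' median was 1.74.

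**Figure D2:**
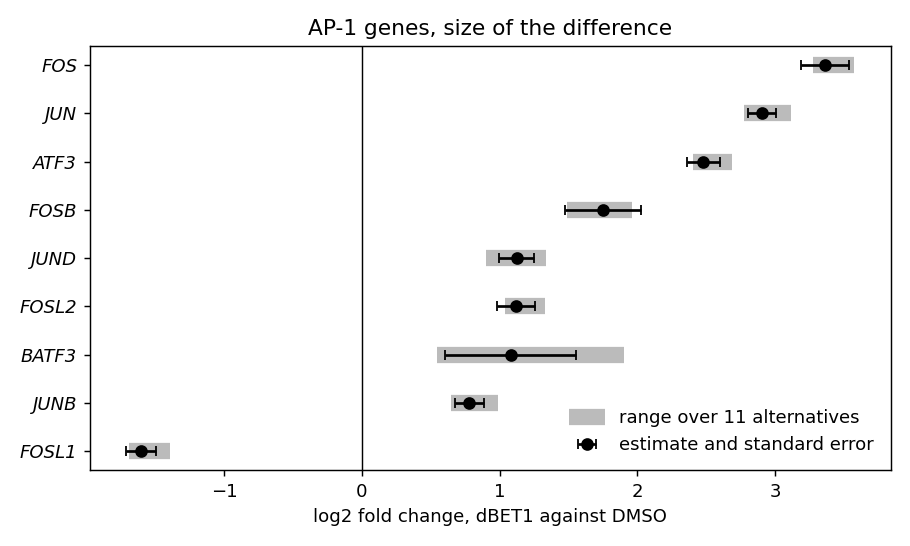
Log2 fold change of dBET1 against DMSO for the 9 AP-1 genes that passed the filter. Points with bars give the estimate and its standard error, and grey bands give the range over 11 other ways of processing. FOS, JUN and ATF3 lie above 2, FOSL1 lies below 0, and the band of BATF3 is the widest, from 0.54 to 1.91.

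Levels of different genes were compared per length, as CPM per kb of annotated exon. With DMSO, JUND stood first at 82.4 ± 17.0 CPM per kb, followed by JUNB at 37.3 ± 4.13, FOSL1 at 26.9 ± 1.51 and JUN at 7.79 ± 0.828 (SD, n = 2). ATF3 came next at 1.80 ± 0.0835 CPM per kb and FOSL2 at 1.29 ± 0.0646, with FOS at 0.632 ± 0.0375 and FOSB at 0.284 ± 0.00355. FOSB and BATF3 (0.248 ± 0.155 CPM per kb) overlapped between their libraries, and no other neighbours in this order did. With dBET1, JUND remained first at 180 ± 0.142 CPM per kb and JUNB was second at 64.0 ± 4.66 (SD, n = 2). JUN now followed at 58.4 ± 2.45 CPM per kb, close to JUNB, with a ratio of 1.10 between them. ATF3 (10.1 ± 0.0975 CPM per kb) stood above FOSL1 (8.84 ± 0.577) and FOS (6.52 ± 0.174), and FOSL2, FOSB and BATF3 followed at 2.80, 0.959 and 0.534 CPM per kb. No neighbours in the dBET1 order overlapped between libraries. The gap from JUNB to JUN, however, was little more than the SD of JUNB.

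On this scale the make-up of the family was different in the 2 treatments. The 10 genes summed to 144 and 173 CPM per kb with DMSO and to 338 and 326 CPM per kb with dBET1, a ratio of 2.09. The 3 Jun genes made up 77.6% and 82.7% of that sum with DMSO and 91.0% and 91.1% with dBET1. The 4 Fos genes made up 20.8% and 16.2% with DMSO and 5.88% and 5.64% with dBET1. Summed Jun mRNA was thus 3.72 and 5.09 times summed Fos mRNA in the DMSO libraries and 15.5 and 16.2 times in the dBET1 libraries. Both dBET1 ratios lay above both DMSO ratios.

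The 2 classes differed inside as well. FOSL1 alone was 92.9% and 91.9% of the summed Fos level with DMSO, and 46.6% and 45.9% with dBET1. FOS itself was 2.02% and 2.35% of it with DMSO and 33.4% and 34.8% with dBET1. The summed Fos level was lower after dBET1, at 19.1 ± 1.04 against 29.1 ± 1.41 CPM per kb (SD, n = 2 in each group), although 3 of its 4 genes were higher. Within the Jun class, JUN went from 6.44% and 5.86% of the summed level with DMSO to 19.6% and 19.1% with dBET1, while JUND stayed between 58.5% and 66.0% in all 4 libraries. These shares rest on exon lengths of the annotation, and the transcripts that the cells used may be shorter.

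**Figure D3:**
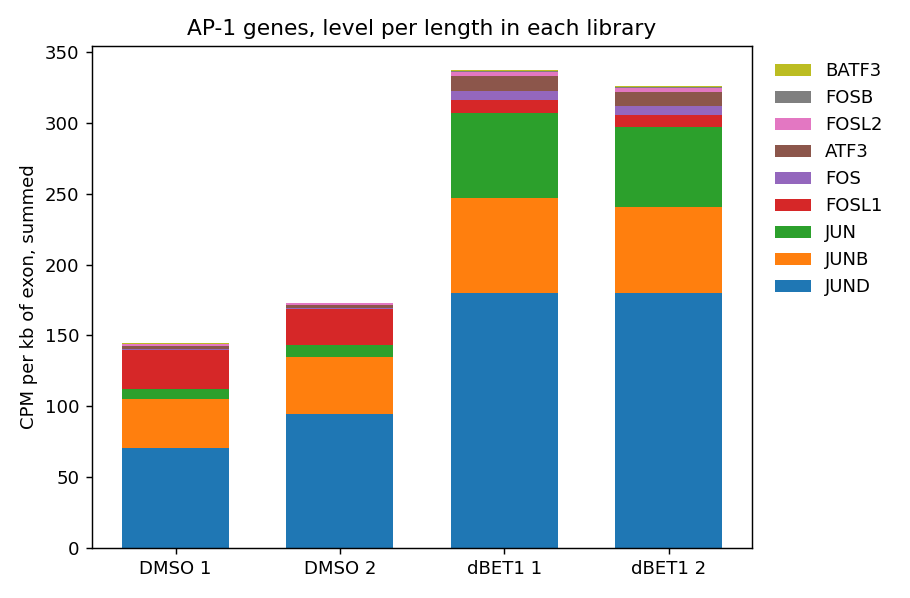
Summed level of the AP-1 genes in each of the 4 libraries, in CPM per kb of annotated exon, with the share of each gene stacked. The sums are 144 and 173 with DMSO and 338 and 326 with dBET1. The JUN segment is wider and the FOSL1 segment narrower in both dBET1 libraries.

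The genes around AP-1 were grouped into lists by role, and a quasi-likelihood test in edgeR gave their calls, with p-values adjusted by Benjamini-Hochberg over all 17971 tested genes. A gene was called when its adjusted p was under 0.05 and its absolute log2 fold change above 1, the thresholds of the study's methods. Over all tested genes, 16.9% were called higher and 8.54% lower, that is 3032 and 1535 genes, while scaling by total counts only gave 3852 and 952. Without the limit on the fold change, 28.0% were higher and 27.6% lower. These shares are the background for the counts that follow.

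Among the kinases that relay signals to AP-1, only MAPK11 was called. Of 31 genes of the ERK, JNK and p38 cascades, 28 were tested, 0 were called higher and 1 was called lower. DESeq2 likewise called 0 higher and 1 lower, and 4 were higher and 12 lower at an unadjusted p under 0.05 from edgeR. The lower one was MAPK11, a p38 kinase, with 11.8 and 17.8 CPM with DMSO and 6.36 and 8.09 CPM with dBET1. Its groups did not overlap, and it fell, at -1.03 ± 0.233 on the log2 scale (SE; edgeR adjusted p = 0.00677). This call was lost without DMSO replicate 2 or without dBET1 replicate 1. With no limit on the fold change 3 kinases were higher and 12 lower, the latter 42.9% of those tested beside 27.6% of all genes.

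None of the factors that act on the FOS and JUN promoters was called. Of 11 listed, 10 were tested, and 0 were called in either direction by edgeR or by DESeq2, while 2 were higher and 4 lower at an unadjusted p under 0.05 from edgeR. With no limit on the fold change, 2 were higher and 4 lower after adjustment too. SRF, the serum response factor that drives FOS, was lower, at -0.51 ± 0.0795 on the log2 scale (SE; edgeR adjusted p = 0.00115), and its partner ELK4 was higher, by 0.45 ± 0.0926 on the log2 scale (SE; edgeR adjusted p = 0.00421). MEF2D was also higher, at 0.40, and MEF2C, SP1 and STAT3 were lower, at -0.64, -0.39 and -0.21 (log2 fold changes, edgeR adjusted p = 0.0266, 0.00214, 0.0227 and 0.0324).

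Regulators of AP-1 mRNA and protein included some larger changes. All 14 listed genes were tested, of which 2 were called higher and 1 lower. HNRNPD, whose protein AUF1 binds AU-rich elements and hastens the decay of early response mRNAs, had 458 and 500 CPM with DMSO and 140 CPM in each dBET1 library. It fell, at -1.78 ± 0.0766 on the log2 scale (SE; edgeR adjusted p = 7.28e-06). ZFP36, the gene of tristetraprolin, which also destabilizes AU-rich mRNAs, had 13.9 and 10.9 CPM with DMSO and 26.9 and 27.9 CPM with dBET1. It rose, by 1.15 ± 0.148 on the log2 scale (SE; edgeR adjusted p = 0.000450). PDCD4, an inhibitor of translation that restrains Jun activity, had 23.2 and 20.2 CPM with DMSO and 64.9 and 54.8 CPM with dBET1. It rose too, by 1.46 ± 0.122 on the log2 scale (SE; edgeR adjusted p = 5.79e-05). Without DMSO replicate 2, 1 gene of the list was called higher, and without dBET1 replicate 1, 3 were. With no limit on the fold change 3 of the 14 were higher and 6 lower.

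Further basic leucine zipper genes went in both directions. Of 11 close dimer partners, 9 were tested and 1 was called higher. MAFA, a large Maf factor known from pancreatic beta cells, had 12 and 18 counts with DMSO and 272 and 315 with dBET1. It rose, by 4.27 ± 0.306 on the log2 scale (SE; edgeR adjusted p = 3.10e-05). None was called lower (0 of 9 by edgeR and by DESeq2, and 2 at an unadjusted p under 0.05). MAF, a large Maf gene of lymphocytes, was listed at 0 in every library. The small Maf genes MAFG and MAFK were lower within the fold limit, at -0.46 and -0.38 (log2 fold changes, edgeR adjusted p = 0.00121 and 0.0104). MAFF and ATF7 were higher within it, at 0.81 and 0.35 (log2 fold changes, edgeR adjusted p = 0.0183 and 0.0203). Among 32 other genes of the class, 30 were tested, 3 were called higher and 3 lower, that is 10% in each direction. Those that rose were BACH2, CEBPA and CREB3L4, at 1.17, 3.19 and 1.19 (log2 fold changes, edgeR adjusted p = 0.000326, 0.000589 and 0.000593). CEBPA, the factor that directs granulocyte differentiation, stayed low, with 0.153 and 0.249 CPM with DMSO and 1.93 and 1.77 CPM with dBET1. With only 5 and 7 counts with DMSO, CEBPA could pass the filter through the dBET1 libraries alone, so its call is no more than a description. With at least 10 counts in every sample, 2 genes of this list were called higher. Those that fell were XBP1, a factor of the unfolded protein response, at -1.89, ATF5 at -1.60 and CREB3L1 at -2.26 (log2 fold changes, edgeR adjusted p = 1.30e-05, 2.32e-05 and 0.000239).

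Known AP-1 target genes were split between genes that the libraries hardly held and a few abundant ones. Of 30 listed, 19 were tested, 8 were called higher (42.1% of those tested) and 2 lower (10.5%). Since 11 listed genes had too few counts, and a gene could pass the filter through the dBET1 libraries alone, the share is a count and no result about the list. DESeq2 called 5 higher and edgeR without the count filter 5, and edgeR with at least 10 counts in every sample called 4 higher and 1 lower. The most abundant called gene, MT2A, a metal-binding metallothionein, had 130 and 145 CPM with DMSO and 731 and 671 CPM with dBET1. It rose, by 2.35 ± 0.0880 on the log2 scale (SE; edgeR adjusted p = 3.96e-06). FN1, which encodes fibronectin, rose by 1.03 and the stress gene GADD45B by 1.74 (log2 fold changes, edgeR adjusted p = 0.000406 and 0.000678). ITGAX, an integrin gene of myeloid cells, had 0.276 and 0.178 CPM with DMSO and 1.90 and 2.39 CPM with dBET1, a rise with an edgeR adjusted p = 0.000477. HBEGF, CXCL8 and CD14, also called higher, stayed under 2 CPM in every library.

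The 2 targets that fell were CCND1 and LIF. CCND1, the gene of cyclin D1, had 120 and 115 CPM with DMSO and 41.1 and 44.3 CPM with dBET1. The change was -1.46 ± 0.0861 on the log2 scale (SE; edgeR adjusted p = 1.55e-05). LIF, a cytokine gene, had 61 and 73 counts with DMSO and 16 and 7 with dBET1. The change was -2.54 ± 0.458 on the log2 scale (SE; edgeR adjusted p = 0.00237). MMP1, a collagenase gene known as an AP-1 target, and MMP3, CD44, SPP1 and IL2 were listed at 0 in every library.

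**Figure D4:**
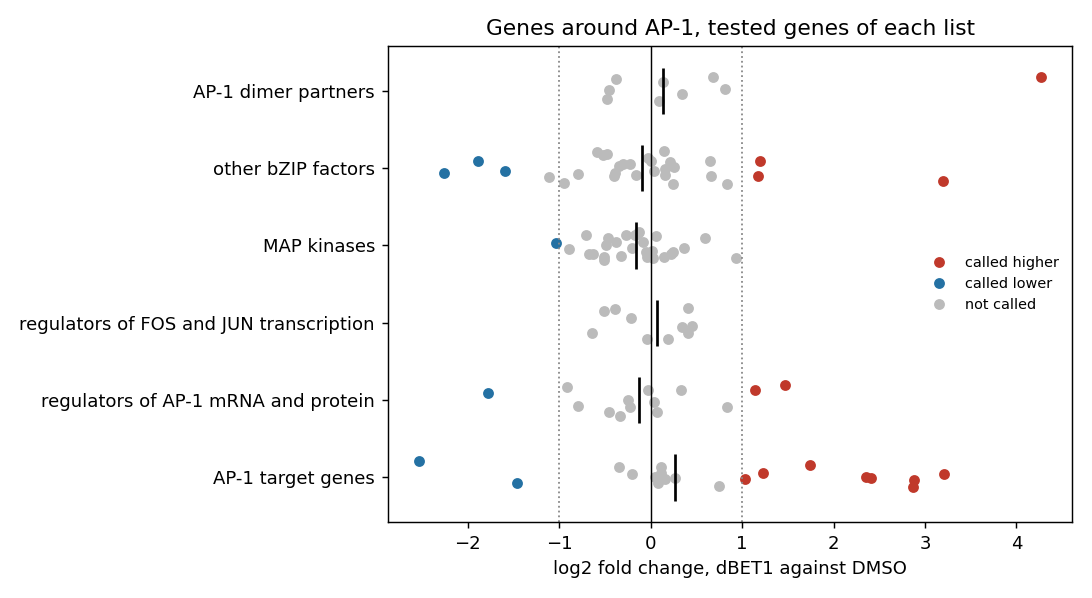
Log2 fold change of dBET1 against DMSO for the tested genes of the 6 lists around AP-1. Each point is 1 gene, red where called higher and blue where called lower, dotted lines mark the limit of 1 in either direction and black bars the median of each list. The kinases and the promoter factors lie mostly within the limit, with 1 call in the first and 0 in the second, and the target genes hold 8 red and 2 blue points.

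Genes next to AP-1 genes were also examined. The annotation places 36 genes within 20 kb of the 10 members, and 14 of them were tested, near 5 members. Of these, 3 were called higher and 1 lower, beside 16.9% and 8.54% of all tested genes, and nothing is read from so few. IQCN, on the same strand as JUND and 5194 bp past its end, had 2 and 0 counts with DMSO and 2828 and 3135 with dBET1 (edgeR adjusted p = 9.67e-07), in the libraries where JUND itself was 2.18 times higher. Nearly all of its counts were in the dBET1 libraries, and IQCN passed the filter through them alone. A long non-coding gene, ENSG00000260805, lies 5603 bp from ATF3 on the opposite strand and rose, by 1.12 ± 0.347 on the log2 scale (SE; edgeR adjusted p = 0.0258). EFEMP2, a matrix protein gene 18457 bp from FOSL1, rose by 2.22 ± 0.359 on the log2 scale (SE; edgeR adjusted p = 0.00141), while FOSL1 was lower. PRDX2, a peroxidase gene abundant in red cells and 3505 bp from JUNB, fell, at -1.24 ± 0.0846 on the log2 scale (SE; edgeR adjusted p = 2.66e-05), while JUNB was higher.

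The nearest tested neighbour of FOSL1, CCDC85B at 414 bp on the opposite strand, was lower within the fold limit, at -0.56 ± 0.157 on the log2 scale (SE; edgeR adjusted p = 0.0176). FIBP, 3518 bp from FOSL1, was at -0.0252 ± 0.0930 on the log2 scale (SE). The other tested neighbours had log2 fold changes of 0.38 (HOOK2) and -0.0277 (RNASEH2A) beside JUNB, and of -0.43 (ERCC1), 0.79 (RTN2) and 0.78 (PPM1N) beside FOSB. Beside FOSL1 they were 1.71 for CTSW, 0.35 for C11orf68 and -0.74 for DRAP1. No neighbour of JUN, FOS or FOSL2 passed the count filter, and LINC01135, the divergent gene 336 bp from JUN, had 6 counts in 1 dBET1 library and 0 in the others.

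Genes whose profile over the 4 libraries was most like a member were found by the distance between centred log2 CPM values among 12410 protein-coding genes. Closest to JUN were NOXA1, H2BC6 and DNAH6, at distances of 0.0979, 0.107 and 0.124. Their log2 fold changes in edgeR were 3.14, 3.07 and 3.65, beside 2.91 for JUN. Closest to FOS were LRRC74B, TSPAN10 and EVI5L, at 0.0806, 0.115 and 0.159, of which TSPAN10 was listed at 0 with DMSO. The edgeR log2 fold changes of these genes were 4.17, 7.22 and 3.26, beside 3.36 for FOS. Closest to ATF3 were LRP1, EXOC3L1 and H2BC21, at 0.0806, 0.106 and 0.110. H2BC21, a histone gene, was the most abundant of the 9, at 18.8 ± 0.514 CPM with DMSO and 106 ± 2.49 CPM with dBET1 (SD, n = 2 per treatment), and EVI5L went from 1.37 to 13.1 CPM. The other 7 stayed under 3 CPM in every library. LRRC74B and DNAH6 each had only 0.0613 and 0.0712 CPM with DMSO. Like TSPAN10, they passed the count filter through the dBET1 libraries alone. The distance was taken over 4 libraries and says nothing of shared function. It used log2 CPM with a prior count of 2, which shrinks differences at low counts, so a short distance is no equal fold change.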

How the data were processed

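RNA of 4 libraries labelled NB4 was sequenced, 2 after dBET1 and 2 after DMSO. The authors aligned company-filtered paired-end reads to hg38 with HISAT2 2.2.0, also named in the submitters' processing notes, estimated abundances with StringTie, and deposited a table of raw counts, which are whole numbers. How abundances became counts is not given in the sources used here, so analyses were repeated with counts divided by 2.

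Columns were matched to samples by treatment, time and replicate number. The control columns are headed NC, which was taken to mean DMSO, the only group other than dBET1. Gene symbols, positions and exon lengths came from GENCODE release 44, which held 56105 of 64252 identifiers, and promoter windows from RefSeq. Counts were filtered with filterByExpr, TMM-normalized and tested in edgeR 4.0.16 (R 4.3.3) with the group alone. Standard errors are the log2 fold change over the root of F. In 5 simulated data sets of this comparison (16285 to 16347 genes, 200 changed), 99.6% of changed genes were called. The changed genes were taken above a count minimum, changed by well more than the fold limit, and varied alike. High recovery was therefore built in, and recovery at low counts or for changes near the limit was not tested. In the deposited counts 55.6% of tested genes differed at an adjusted p under 0.05. The share called with so many genes differing was not tested.

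The members and lists were chosen with earlier results of these data known. Named genes are the members, up to 4 called genes of each list and direction by smallest p, tested neighbours within 20 kb, 3 genes most like JUN, FOS and ATF3 in log2 CPM (prior count of 2), markers, and genes at 0. Genes named within the fold limit (6 promoter factors, MAFG, MAFK, MAFF and ATF7), HBEGF, CXCL8 and LINC01135 were chosen after their values were seen. Alternatives were DESeq2 1.42.0, its size factors, total counts only, other count filters, the replicate number as a block and each library left out. Values of some list genes are not reported here.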

Additional observations from a re-analysis of the deposited data

How the results depend on the processing

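The signs of the 9 tested AP-1 genes were the same under all 11 alternatives, with 8 positive and 1, FOSL1, negative in each. The groups overlapped for none of the 9, so leaving out a library could hardly change a sign. The equal signs therefore add no support. Their median log2 fold change of 1.13 was 1.34 with total counts only, a scaling that moved the median of all genes from 0.048 to 0.26. Leaving out each library in turn gave 1.12 to 1.74, with 1.74 without DMSO replicate 1 and 1.32 without DMSO replicate 2. BATF3 moved most, to 0.54 without DMSO replicate 2 and 1.91 without DMSO replicate 1. Where a group was left with 1 library, that library was assumed to vary like the other group.

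Over all tested genes, 3032 were called higher and 1535 lower. With at least 10 counts in every sample 1940 were higher, with total counts only 952 were lower, and with no limit on the fold change 5038 were higher and 4953 lower. With total counts only, 2 dimer partners, 1 kinase and 5 neighbours were called higher and 0 kinases lower. With at least 10 counts in every sample, 1 kinase was called higher, 0 kinases lower, and 4 target genes higher and 1 lower. With counts divided by 2, 0 kinases were called lower. Target genes called higher numbered 5 with DESeq2 and 5 with no filter on low counts. With single libraries left out, kinases called lower numbered 0 to 2 (0 without DMSO replicate 2 or dBET1 replicate 1, 2 without dBET1 replicate 2). Regulators of AP-1 mRNA and protein called higher numbered 1 to 3 (1 without DMSO replicate 2, 3 without dBET1 replicate 1). With no limit on the fold change, higher and lower numbered 3 and 2 for dimer partners, 6 and 10 for other bZIP genes, 3 and 12 for kinases, 2 and 4 for promoter factors and 5 and 4 for neighbours, with 6 regulators of AP-1 mRNA and protein lower. The cause of these shifts was not tested.

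The replicate numbers pair nothing that the labels name, and deviations of same-numbered libraries had a correlation of -0.0075 over genes. With the replicate block, 2945 genes were called higher and 1530 lower, 7 target genes were called higher instead of 8, and the members' median was 1.18. The block changed no other call count.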
